A study of Mus musculus with 12 samples.

Results

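The genes described here encode the proteins of the cytosolic ribosome. They were taken by symbol: Rpl or Rps followed by a digit, or Rplp0, Rplp1, Rplp2 and Rpsa, without the S6 kinase genes (Rps6k) and without pseudogene symbols that contain "-ps". This gave 86 genes with 172 probes, of 19751 named genes and 39429 probes on the array. They comprise proteins of the large subunit, proteins of the small subunit, the 3 proteins of the acidic stalk, and 8 paralogues (Rpl3l, Rpl7l1, Rpl10l, Rpl22l1, Rpl36al, Rpl39l, Rps4l and Rps27l). The symbol rule also took 2 genes that are not ribosomal proteins in the strict sense, Rps19bp1, which encodes a regulator of the deacetylase SIRT1, and the retrogene Rps23rg1. Rps4l, listed here with the paralogues, is a transcribed pseudogene in the RefSeq table.

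RNA came from whole female mouse embryos at embryonic day 9.5, when neural crest cells migrate, on a mixed C3HeB/FeJ background. The 4 wild-type embryos were Chd7+/+, the 4 heterozygotes carried 1 whirligig allele (Chd7Whi/+) and the 4 homozygotes carried only that allele (Chd7Whi/Whi), which the labels also call a knockout. All came from matings of heterozygous parents and were freed of their yolk sacs, and each was hybridised to its own one-colour Agilent array. Embryos of a genotype are biological replicates, per the labels. Chd7 encodes a chromatin remodeller whose loss of function causes CHARGE syndrome in humans, and whirligig is a chemically induced mutation of it. The allele is present in every tissue of the embryo, and a whole embryo mixes all cell types, so fewer cells of a type and less RNA per cell cannot be told apart. The RefSeq gene table tied 0 probes to Chd7, and its own level was not analysed here.

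A ribosome consists of a small subunit, which reads the mRNA, and a large subunit, which joins amino acids, each built from ribosomal RNA and a set of proteins present in about equal copies. The genes of these proteins lie scattered over the genome and are expressed in nearly every cell, and their mRNAs belong to the most abundant of a growing embryo. Many of the mRNAs begin with a terminal oligopyrimidine (TOP) tract, a C followed by a run of pyrimidines, through which mTOR signalling controls their translation. Loss of 1 copy of several of these genes causes Diamond-Blackfan anaemia, and mouse mutants of others have defects of the skeleton, pigment or tail, commonly with activation of p53. CHD7 has been described in the nucleolus as a factor that favours ribosomal RNA synthesis.

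The start regions of 8 members that recur below are shown, because they carry, or lack near the annotated start, the TOP tract that sets this gene family apart. Each line gives 40 bases before and 20 bases from the annotated transcript start, on the coding strand, from RefSeq on GRCm38.p6. Capitals mark a TOP start, searched as a C followed by at least 4 pyrimidines that begins within 5 bases of the annotated start. Where a gene had several annotated windows, the first one with a TOP start was chosen for print. Rpl35a had 3 windows and Rps27l had 2, while Rps19 had 3 and a TOP start in 0 of them.
Rpl35a: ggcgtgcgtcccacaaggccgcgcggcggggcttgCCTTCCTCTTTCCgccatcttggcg
Rps9: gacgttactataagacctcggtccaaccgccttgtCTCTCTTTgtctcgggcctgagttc
Rps27: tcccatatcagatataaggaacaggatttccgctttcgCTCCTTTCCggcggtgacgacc
Rpl38: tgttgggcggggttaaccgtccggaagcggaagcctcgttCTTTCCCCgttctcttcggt
Rps27l: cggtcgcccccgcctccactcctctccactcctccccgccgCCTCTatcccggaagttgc
Rpl24: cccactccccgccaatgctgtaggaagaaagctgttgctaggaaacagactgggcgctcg
Rps19: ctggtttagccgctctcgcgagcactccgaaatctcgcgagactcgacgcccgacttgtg
Rps12: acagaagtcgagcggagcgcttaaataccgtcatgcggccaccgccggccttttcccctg
The windows lie at chr16:33056442-33056501 (plus strand) for Rpl35a, chr7:3704001-3704060 (plus) for Rps9, chr3:90213629-90213688 (minus) for Rps27 and chr11:114668540-114668599 (plus) for Rpl38. Those of the others lie at chr9:66946046-66946105 (plus) for Rps27l, chr16:55966235-55966294 (plus) for Rpl24, chr7:24884552-24884611 (plus) for Rps19 and chr10:23787190-23787249 (minus) for Rps12. The tract was 13 bases long in Rpl35a, 9 in Rps27, 8 in Rps9 and in Rpl38, and 5 in Rps27l. In the printed windows of Rpl24, Rps19 and Rps12 no TOP start was found within 5 bases of the annotated start, which says nothing about the starts the embryo uses. The Rps12 window does hold a C followed by a run of pyrimidines near its end, too far past the annotated start to be marked.

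Promoter windows of 250 bases before to 50 after the start were available for 63 of the 86 genes (75 windows), and 23 genes had none in the table. A TOP start was found in 40% of these windows, against 18.3% of all 32851 windows and 22.7% of those of the mitochondrial ribosomal proteins, whose mRNAs are not TOP mRNAs. The motif CCGGAAG, a binding sequence of ETS factors, stood on either strand in 36% of the members' windows and in 8.86% of all windows. ATGGCGG, the core of YY1 sites with its flank, stood in 18.7% and 4.05%, and the TATA box sequence TATAAA in 9.33% and 13.6%. The mitochondrial ribosomal proteins held CCGGAAG in 34.7% of their windows and ATGGCGG in 17.3%, shares near those of the cytosolic proteins. None of these motifs contains another, and a match is a description of the window only.

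On the 12 arrays the 75th percentile of spot signals ran from 1115 to 1746, and 70.0% to 76.4% of spots were well above background. The arrays lay on 3 slides, each of which held all 3 genotypes, while position 1 on a slide held 3 arrays, all of them wild type. Values are given as the scaled log2 signal, from which the 75th percentile of that array has been subtracted on the log2 scale. For each gene the probe with the highest mean over all arrays was used. Of the 86 genes, 85 were tested. For 83 of these the probe was well above background on 12 of 12 arrays, and no spot was saturated. Rpl3l, a paralogue of Rpl3 known from heart and skeletal muscle, was well above background on only 3 arrays (1 wild type, 0 heterozygous, 2 homozygous) and was not tested.

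No ribosomal protein gene passed the threshold (limma, adjusted p under 0.05 over 22582 genes, of which 15287 carry a symbol and 7295 are unnamed identifiers of the file counted as genes) between any 2 of the genotypes. In homozygous minus wild type, 1.37% of all genes passed (309 of 22582), and 0 of 85 members did. In heterozygous minus wild type, 0.00886% of all genes passed, and in homozygous minus heterozygous 0.0133%, so few calls could be met among members there. At an unadjusted p under 0.05, 4 members lay higher and 2 lower in homozygotes than in wild type (background 8.3% and 8.64% of all genes). In heterozygotes 9 lay higher and 0 lower than in wild type (background 10.3% and 5.01%). Between homozygotes and heterozygotes there were 0 in either direction (background 2.23% and 3.8%). These shares of members (of 85) are near or below those of all genes. The comparisons of homozygotes and of heterozygotes with wild type share their 4 wild-type arrays, so their values are given side by side and are not independent.

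The differences were small and were bounded closely for most members. The median log2 fold change over the 85 genes was 0.07 in homozygous minus wild type, 0.08 in heterozygous minus wild type and -0.03 in homozygous minus heterozygous, beside 0.01, 0.04 and -0.03 over all genes tested. The value was above 0 for 59, 68 and 26 of 85 members, against 52.2%, 56.1% and 40.2% of all genes. With quantile normalization the first of these medians turned to -0.03 (34 of 85 above 0) and the second to -0.05 (32 of 85). With cyclic loess, normexp and the array median they stayed above 0, at 0.07, 0.04 and 0.04 for the first and 0.04, 0.06 and 0.01 for the second. Quantile normalization gives every array the same distribution of signals. Most members lay far above the 75th percentile, where it can remove a shift that they share, so it cannot decide on which side of 0 the family lies. The 95% interval of the difference lay inside a 2-fold change for 83, 83 and 84 of the 85 genes, and inside a 1.5-fold change for 79, 75 and 82. The median standard error of a member's log2 fold change was 0.11, against 0.15 over all genes.

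**Figure D1:**
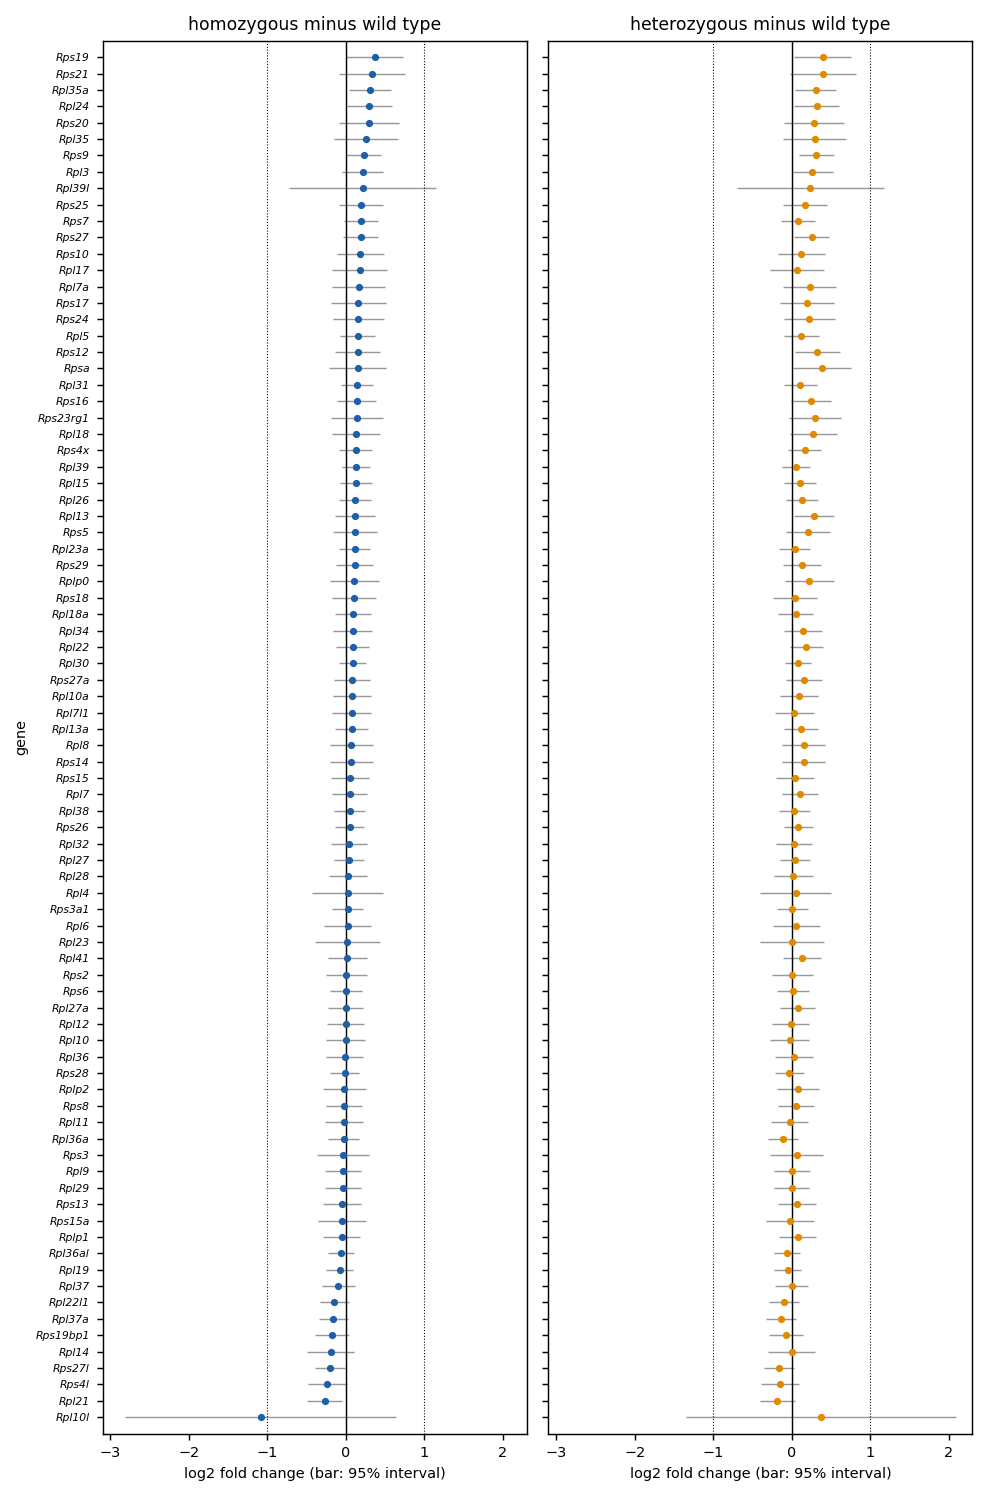
Log2 fold change of 84 of the 85 ribosomal protein genes tested (points) with its 95% interval (grey bars, n = 4 arrays per genotype), homozygous minus wild type on the left and heterozygous minus wild type on the right, genes ordered by the left panel and dotted lines at a 2-fold change. Points crowd around 0, slightly to its right (medians 0.07 and 0.08, which become -0.03 and -0.05 with quantile normalization), and only the dim probes of Rpl10l and Rpl39l have intervals that pass the dotted lines.

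The members were not equally placed across the embryos of a genotype. Averaged over the 85 genes and set against each gene's wild-type mean, the 4 wild-type arrays lay at -0.03, -0.04, 0.06 and 0.01 on the log2 scale. The heterozygous arrays lay at 0.05, 0.05, 0.05 and 0.26, and the homozygous arrays at -0.08, 0.01, 0.18 and 0.08. Heterozygous replicate 4 and homozygous replicate 3 were high, homozygous replicate 1 was the lowest of all, and the homozygous range included the wild-type range. On heterozygous replicate 4, 71 of 85 members lay above their wild-type mean, on homozygous replicate 3 it was 78, and on homozygous replicate 1 it was 20. The 75th percentile used as the scale lay the opposite way on these 3 arrays: it was lowest on heterozygous replicate 4 (1115) and homozygous replicate 3 (1201) and highest on homozygous replicate 1 (1746). It was also high on wild-type replicate 4 (1635) and homozygous replicate 4 (1594), whose means of 0.01 and 0.08 were not low. With quantile normalization heterozygous replicate 4, homozygous replicate 3 and homozygous replicate 1 lay at -0.01, -0.04 and 0.02. With cyclic loess, which removes intensity-dependent differences between arrays, they lay at 0.17, 0.09 and 0.03. The medians over the 85 genes on these 3 arrays were 0.20, 0.21 and -0.09 with the 75th percentile and -0.08, -0.05 and 0.01 with quantile normalization. The mean on heterozygous replicate 4 includes the dim Rpl10l, which lay 2.28 above its wild-type mean there. Without heterozygous replicate 4 the median of heterozygous minus wild type was 0.05, and without homozygous replicate 3 that of homozygous minus wild type was 0.01. Within genotypes, the 3570 pairs of members had a median correlation of 0.36 over the 12 arrays, and 82.6% of pairs were above 0. That is a description of signals that share an array and its scale.

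**Figure D2:**
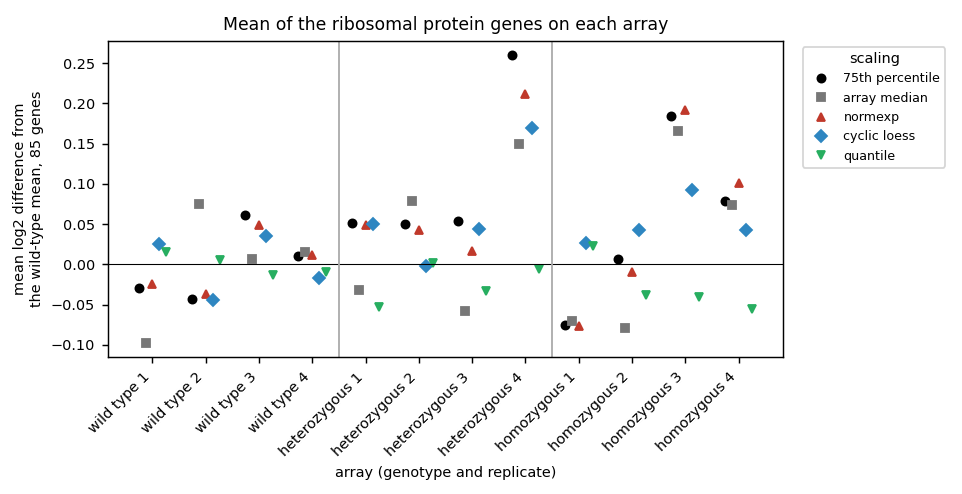
Mean over the 85 genes of the log2 difference from each gene's wild-type mean, on each of the 12 arrays (x axis), under 5 ways of scaling the arrays (symbols). Heterozygous replicate 4 is at 0.26 and homozygous replicate 3 at 0.18 with the 75th percentile, and every array lies between -0.05 and 0.02 with quantile normalization.

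Within slides, where 1 or 2 arrays of a genotype met, the median difference of the members from wild type was -0.09, 0.00 and 0.13 for homozygotes on slides 1, 2 and 3. For heterozygotes it was 0.05, 0.05 and 0.20. The homozygous difference thus changed sign between slides, and the heterozygous difference did not. With the position on the slide as a block the medians were -0.01 and 0.04, with median half-widths of the members' 95% intervals of 0.47 and 0.58 in place of 0.24. Position 1 held wild-type arrays only, so in this fit the comparison with wild type rests on the 1 wild-type array at another position, replicate 3. The part of position in the differences was not tested further.

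**Figure D3:**
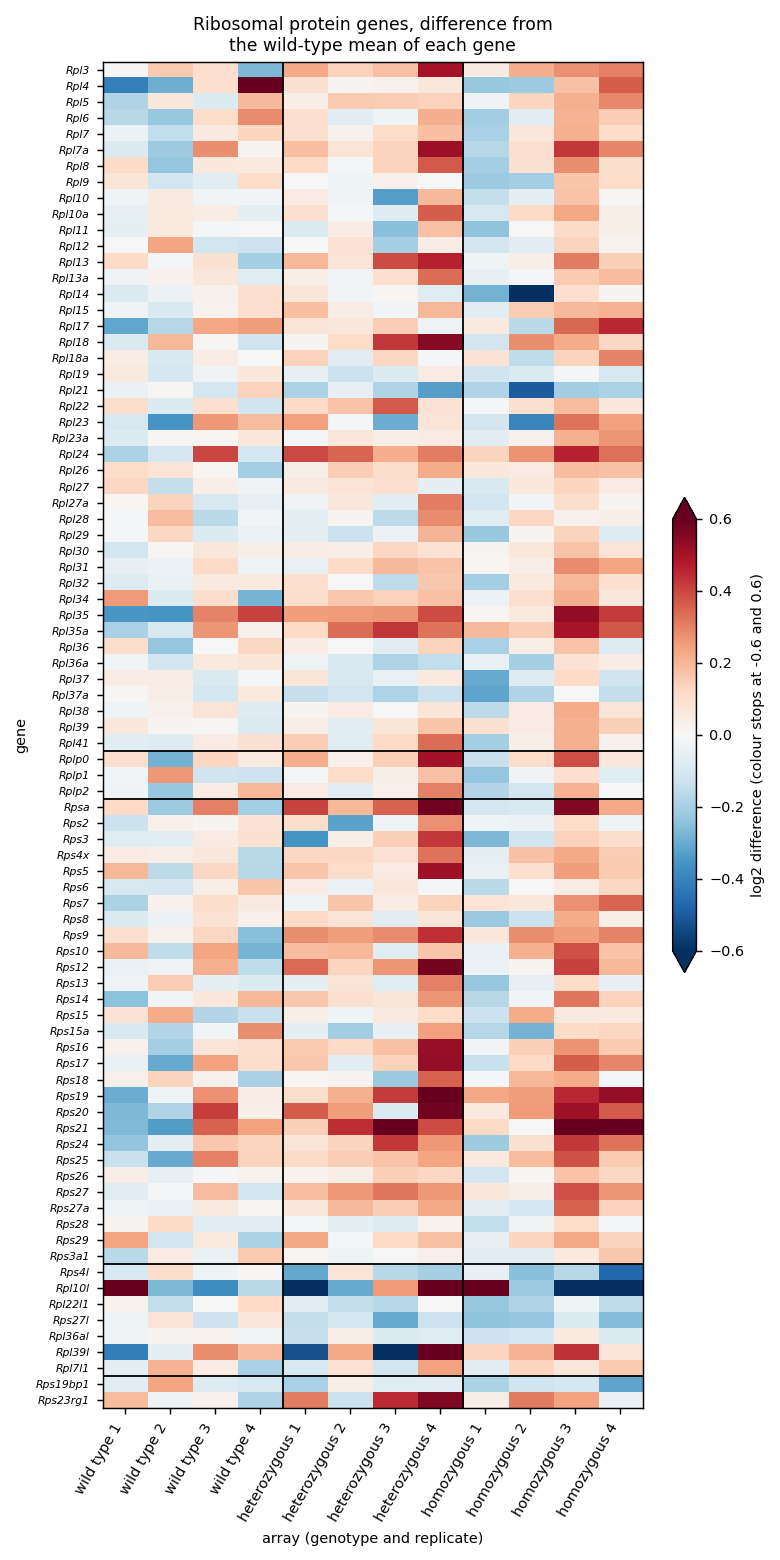
Log2 difference of 84 of the 85 tested genes (rows, from top to bottom large subunit, stalk, small subunit, paralogues, and the 2 genes that are not ribosomal proteins) from its wild-type mean on each of the 12 arrays (columns), scaled by the 75th percentile; red is higher, blue lower. Most rows are red on heterozygous replicate 4 and homozygous replicate 3, while Rpl21, Rps27l and Rpl37a are blue on most mutant arrays.

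Among the proteins of the large subunit, 30 of 43 genes had a value above 0 in homozygous minus wild type and 33 in heterozygous minus wild type, with medians of 0.05 and 0.06. Quantile normalization turned these medians to -0.04 and -0.08, with 12 and 10 of 43 above 0. Rpl35a, which is mutated in some patients with Diamond-Blackfan anaemia, had scaled log2 signals of 6.02, 6.11, 6.48 and 6.23 in wild type, 6.33, 6.54, 6.64 and 6.54 in heterozygotes and 6.40, 6.36, 6.70 and 6.58 in homozygotes. Its wild-type replicate 3 lay among the mutant arrays, and the other wild-type arrays lay below all of them. The log2 fold change was 0.30 ± 0.12 (SE) in both mutants (limma, adjusted p = 0.251 in homozygotes and 0.290 in heterozygotes). A second Rpl35a probe gave 0.15 and -0.02. The start region shown above, 1 of its 3 annotated windows and chosen because it holds a TOP start, has the longest tract of those printed.

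Rpl24, the gene of the belly spot and tail mouse mutant, repeated this arrangement without a TOP start in its printed window. Its signals were 7.19, 7.27, 7.78 and 7.27 in wild type, 7.77, 7.72, 7.59 and 7.68 in heterozygotes and 7.51, 7.64, 7.84 and 7.71 in homozygotes. Again wild-type replicate 3 alone overlapped the mutants. The log2 fold changes were 0.30 ± 0.13 in homozygotes (adjusted p = 0.275) and 0.32 ± 0.13 in heterozygotes (adjusted p = 0.293). Without wild-type replicate 3 the homozygous value was 0.43 with an adjusted p of 0.0727, the smallest of any member under the alternatives for that comparison. A second probe of Rpl24 gave 0.12 and 0.11, and with the slide position as a block the values of the probe used were -0.10 and -0.08, in a fit where wild type is represented by replicate 3 alone.

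Rpl21 had the smallest p of the members in homozygous minus wild type and was lower there. The Rpl21 probe was much dimmer than those of Rpl35a and Rpl24, with a wild-type mean of 0.02 beside 6.21 and 7.38. Its signals were -0.02, 0.02, -0.09 and 0.15 in wild type, -0.17, -0.03, -0.16 and -0.31 in heterozygotes and -0.17, -0.48, -0.19 and -0.17 in homozygotes. All 4 homozygous arrays lay below all 4 wild-type arrays, and the heterozygotes overlapped both. The log2 fold change was -0.27 ± 0.10 (limma, adjusted p = 0.225), and a second probe of the gene gave -0.06. Members whose arrays did not overlap were few: 0 higher and 2 lower (Rpl21 and Rps19bp1) in homozygotes against wild type, where the background was 5.63% and 8.49% of all genes. In heterozygotes against wild type they were 4 higher (Rps4x, Rps9, Rps16 and Rps27a) and 1 lower (Rpl37a), with a background of 4.38% and 2.33%. Homozygotes and heterozygotes had 0 in either direction, with a background of 1.31% and 1.7%.

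Several other large subunit genes have mouse mutants or special roles, and most of their values lay near 0. Rpl38, mutated in the tail short mouse and needed there for the translation of Hox mRNAs, had signals of 7.16, 7.21, 7.26 and 7.11 in wild type, 7.20, 7.23, 7.18 and 7.26 in heterozygotes and 7.03, 7.23, 7.41 and 7.26 in homozygotes. All 3 genotypes overlapped, and its log2 fold change in homozygotes was 0.05 with a 95% interval of -0.15 to 0.25. The direction of Rpl38 turned with normexp and with quantile normalization (-0.02 and -0.05). Rpl5 and Rpl11, which with the 5S RNA bind and inhibit the p53 ligase MDM2 when ribosome assembly fails, had homozygous values of 0.15 ± 0.10 and -0.02 ± 0.11. Their heterozygous values were 0.12 ± 0.10 and -0.03 ± 0.11. The other 2 probes of Rpl11 gave 0.23 and -0.05 in homozygotes. Rpl27a, the gene of the sooty foot ataxia mouse, had a homozygous value of 0.00 ± 0.10, Rpl29, whose loss gives small mice, -0.04 ± 0.10, and the X-linked Rpl10 0.00 ± 0.11. The 95% intervals of these 3 genes reached no lower than -0.27 and no higher than 0.24 in that comparison.

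The largest heterozygous values of the large subunit, apart from Rpl24 and Rpl35a, were those of Rpl35 (0.29 ± 0.19), Rpl13 (0.28 ± 0.12, adjusted p = 0.296), Rpl18 (0.27 ± 0.14) and Rpl3 (0.26 ± 0.12). Rpl3 takes part in forming the site of peptide bond formation. Rpl13 had 6.89, 6.77, 6.87 and 6.58 in wild type, 6.97, 6.86, 7.17 and 7.24 in heterozygotes and 6.75, 6.82, 7.09 and 6.92 in homozygotes, with all genotypes overlapping. In homozygotes its value was 0.12 ± 0.12, and it turned to -0.01 with quantile normalization. Rpl14 differed among homozygotes, at 7.59, 7.26, 7.97 and 7.89, where replicate 2 was the lowest array for this gene, and its heterozygous and wild-type arrays lay between 7.79 and 7.97. The stalk proteins Rplp0, Rplp1 and Rplp2, which recruit the elongation factors, had homozygous values of 0.11 ± 0.14, -0.06 ± 0.11 and -0.02 ± 0.12 and heterozygous values of 0.22 ± 0.14, 0.08 ± 0.11 and 0.08 ± 0.12.

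Of the 30 small subunit genes, 25 had a value above 0 in homozygous minus wild type and 28 in heterozygous minus wild type, with medians of 0.11 and 0.15. Unlike those of the large subunit, these medians stayed above 0 with each of the 5 scalings, at their lowest with quantile normalization (0.04 and 0.02, with 18 and 17 of 30 above 0). The difference between the subunits was not tested. None of the 30 passed the threshold. At an unadjusted p under 0.05, 2 and 5 of them lay higher, beside 8.3% and 10.3% of all genes.

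Rps9, a protein of the decoding accuracy region of the small subunit, had the smallest p of the members in heterozygotes. Its signals were 6.87, 6.79, 6.90 and 6.52 in wild type, 7.05, 7.02, 7.06 and 7.21 in heterozygotes and 6.84, 7.05, 7.02 and 7.07 in homozygotes. All heterozygous arrays lay above all wild-type arrays, and homozygous replicate 1 alone of the homozygous arrays overlapped wild type. The log2 fold change was 0.31 ± 0.10 in heterozygotes (a fold of 1.24, limma, adjusted p = 0.248) and 0.22 ± 0.10 in homozygotes (adjusted p = 0.295). With quantile normalization the heterozygous value was 0.16.

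Rps19, the gene most often mutated in Diamond-Blackfan anaemia and the gene of a dark skin mouse, had the largest positive value of the members in homozygotes. Its signals were 5.35, 5.62, 5.92 and 5.69 in wild type, 5.75, 5.86, 6.07 and 6.49 in heterozygotes and 5.88, 5.90, 6.10 and 6.17 in homozygotes. Wild-type replicate 3 overlapped both mutants, and the spread within genotypes (SD 0.24, 0.32 and 0.15) was near the difference. The log2 fold change was 0.37 ± 0.17 in homozygotes (a fold of 1.29, limma, adjusted p = 0.293) and 0.39 ± 0.17 in heterozygotes (a fold of 1.31, adjusted p = 0.301).

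Rps12 and Rps27 stood among the 6 smallest p of the heterozygous comparison. Rps12 had 7.45, 7.47, 7.71 and 7.34 in wild type, 7.83, 7.62, 7.76 and 8.07 in heterozygotes and 7.46, 7.51, 7.90 and 7.69 in homozygotes, a heterozygous value of 0.33 ± 0.13 (adjusted p = 0.288). Rps27 had 6.96, 7.02, 7.21 and 6.91 in wild type, 7.20, 7.28, 7.35 and 7.29 in heterozygotes and 7.09, 7.06, 7.41 and 7.29 in homozygotes, a heterozygous value of 0.25 ± 0.10 (adjusted p = 0.292). In both genes wild-type replicate 3 was the highest wild-type array and the only one to reach the heterozygous range. Their homozygous values were 0.15 ± 0.13 and 0.19 ± 0.10. Rpsa, the laminin receptor precursor whose mutation causes absence of the spleen, had 7.71, 7.50, 7.66 and 7.88 in heterozygotes against 7.42, 7.09, 7.61 and 7.10 in wild type and 7.20, 7.21, 7.86 and 7.53 in homozygotes. That is 0.38 ± 0.17 in heterozygotes (adjusted p = 0.313) and 0.15 ± 0.17 in homozygotes, and its other 3 probes gave heterozygous values of -0.06, 0.19 and 0.31.

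The values of other small subunit genes, most of them with a known role, ran from near 0 to as large as those of Rps9 and Rps12. Rps6, the target of the S6 kinases below mTOR, had a homozygous value of 0.00 ± 0.09 (95% interval -0.20 to 0.20) and a heterozygous value of 0.02 ± 0.09. Rps7, Rps24 and Rps26, all Diamond-Blackfan anaemia genes, had homozygous values of 0.19 ± 0.10, 0.16 ± 0.15 and 0.05 ± 0.08. Rps20, the gene of another dark skin mouse, had 0.30 ± 0.17 in homozygotes and 0.28 ± 0.17 in heterozygotes (adjusted p = 0.406 and 0.431). Rps21 had comparable values of 0.33 ± 0.19 and 0.39 ± 0.19. The X-linked Rps4x had 0.12 ± 0.10 and 0.16 ± 0.10, Rps3, which also acts in DNA repair, -0.04 ± 0.15 and 0.06 ± 0.15, and Rps27a, made as a fusion with ubiquitin, 0.08 ± 0.10 and 0.16 ± 0.10.

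**Figure D4:**
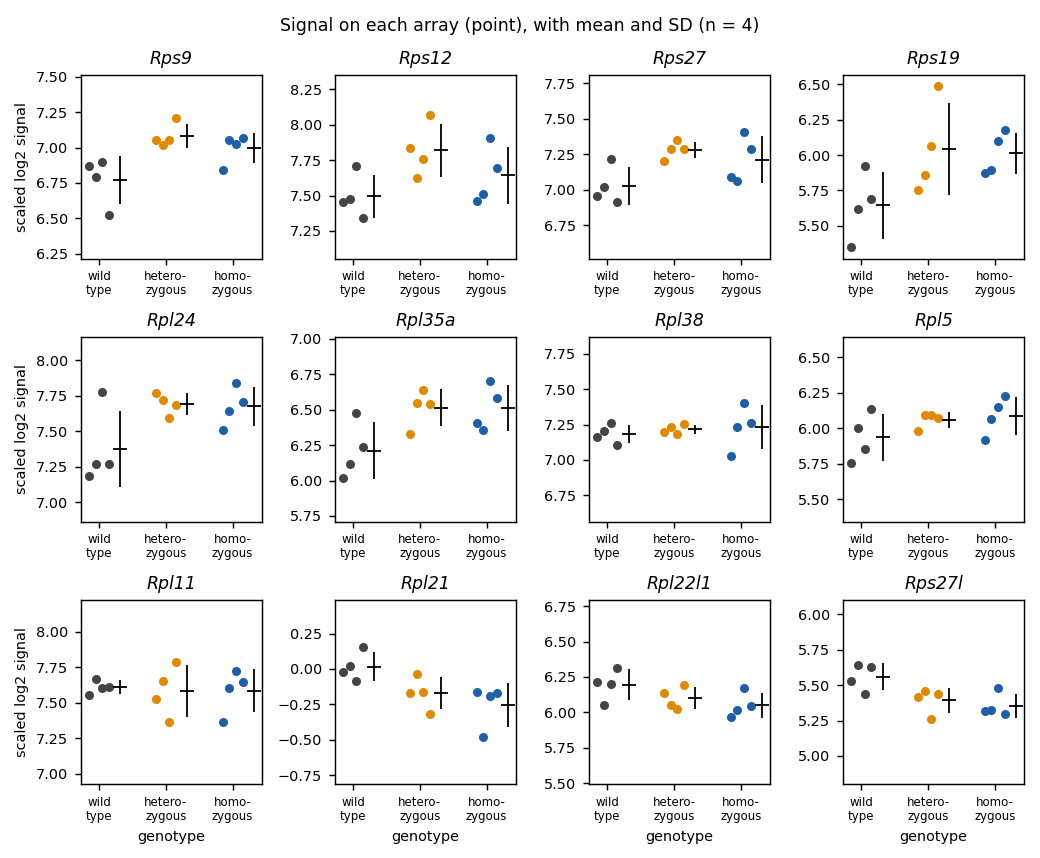
Scaled log2 signal of 12 members on each array (points, by genotype), with the mean and SD of the 4 arrays at the right of each group; all panels span the same number of log2 units. Wild-type replicate 3 overlaps the mutants in Rpl24, Rpl35a and Rps19, while the 4 homozygous points of Rpl21 lie below the 4 wild-type points.

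Most of the paralogues are tissue-restricted or minor copies. Of the 7 tested, 5 had a value below 0 in homozygous minus wild type (median -0.15) and 4 in heterozygous minus wild type (median -0.06). Without the transcribed pseudogene Rps4l these were 4 and 3 of 6, with medians of -0.10 and -0.02. Rpl10l, which lay below 0 in homozygotes, was tested only because its 4 wild-type arrays were all well above background. Its homozygous value was -1.09, and -0.05 with normexp. Rps27l, a direct target of p53, had signals of 5.53, 5.64, 5.44 and 5.62 in wild type, 5.42, 5.46, 5.26 and 5.44 in heterozygotes and 5.32, 5.32, 5.48 and 5.30 in homozygotes. Homozygous replicate 3 alone of the homozygous arrays reached the wild-type range. The log2 fold change was -0.20 ± 0.09 (limma, adjusted p = 0.266) in homozygotes and -0.17 ± 0.09 in heterozygotes, beside 0.19 ± 0.10 and 0.25 ± 0.10 for Rps27. For the pair Rpl22 and Rpl22l1, of which the first is known to hold down the second, Rpl22 had 0.09 ± 0.10 in homozygotes, turning to -0.03 with quantile normalization, and Rpl22l1 had -0.15 ± 0.09 (adjusted p = 0.412). Rps4l had -0.24 ± 0.11 and -0.15 ± 0.11, and Rpl36al, among the least variable members, -0.06 ± 0.08 in both mutants.

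Rpl7l1, a factor of large subunit assembly, had 0.07 ± 0.11 in homozygotes, beside 0.05 ± 0.10 for Rpl7. Rpl10l and Rpl39l, which are known from testis, had dim probes. Rpl10l was well above background on 4 wild-type, 3 heterozygous and 2 homozygous arrays, with signals of -5.12, -6.19, -6.30 and -6.09 in wild type, -6.66, -6.23, -5.67 and -3.65 in heterozygotes and -5.14, -6.14, -7.97 and -8.79 in homozygotes. The spread within genotypes (SD 1.27) was the widest of all members, and the value of -1.46 ± 0.79 in homozygous minus heterozygous, the smallest p of that comparison, had an adjusted p of 0.870. Rpl39l was well above background on 4, 3 and 4 arrays, and its homozygous value was 0.21 ± 0.43, beside 0.12 ± 0.08 for Rpl39. Rpl30 and Rpl36al had the smallest spread within genotypes, with SDs of 0.063 and 0.064.

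Rps19bp1 had 2.76, 3.07, 2.75 and 2.73 in wild type, 2.63, 2.87, 2.75 and 2.77 in heterozygotes and 2.64, 2.71, 2.72 and 2.51 in homozygotes. The homozygous arrays lay below all wild-type arrays by a narrow margin, at -0.18 ± 0.10 (adjusted p = 0.374). Rps23rg1 had 0.14 ± 0.15 in homozygotes and 0.30 ± 0.15 in heterozygotes. Without heterozygous replicate 2 its heterozygous value was 0.44 with an adjusted p of 0.0951, the smallest of any member under the alternatives for that comparison.

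Between homozygotes and heterozygotes the members differed least. Beside Rpl10l, the smallest p included those of Rpl13 (-0.17 ± 0.12), Rpsa (-0.24 ± 0.17), Rpl14 (-0.19 ± 0.14) and Rps12 (-0.18 ± 0.13), with adjusted p between 0.914 and 0.920. The median of this comparison changed sign with quantile normalization (0.02, with 49 of 85 above 0), cyclic loess and the array median as the scale (both 0.01), and also without homozygous replicate 1 (0.02) or heterozygous replicate 4 (0.0038).

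Different probes of a gene did not always give the same sign. Of the 51 members with at least 2 tested probes, the probes differed in sign for 21 in homozygous minus wild type, 22 in heterozygous minus wild type and 26 in homozygous minus heterozygous. Probes of Rpl23 spread the most, from -0.17 to 0.26 in homozygotes and from -0.24 to 0.30 in heterozygotes against wild type. In homozygous minus heterozygous the widest spread was that of Rpl22, from -0.10 to 0.26. Tested one by one, 0 of 169 probes passed in each of the 3 comparisons. In homozygous minus wild type the median was 0.08, with 5 probes higher and 3 lower at an unadjusted p under 0.05. In heterozygous minus wild type the median was 0.10, with 18 higher and 1 lower. Between homozygotes and heterozygotes 2 lay higher and 0 lower. The shares of all genes, with 1 probe each, were 8.3% and 8.64%, 10.3% and 5.01%, and 2.23% and 3.8%. For 63 of the 86 members the gene table also lists processed pseudogenes (321 symbols in all), whose transcripts could share a probe, and how much they add to a signal was not tested.

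The other genes of the ribosome's supply, from lists of textbook members, gave these values in homozygous minus wild type. Fau and Rack1, ribosomal proteins that the symbol rule does not take, had 0.24 ± 0.09 (adjusted p = 0.238) and 0.05 ± 0.11, and their values in heterozygotes were 0.23 and 0.19. The mitochondrial ribosomal proteins, which serve the separate ribosome of the mitochondrion, lay lower: 16 of 77 had a value above 0, against 52.2% of all genes, and 61 below, 0 passed the threshold and the median was -0.13, with the same split and a median of -0.10 in heterozygotes. Their median stayed below 0 with each of the 5 scalings, from -0.15 to -0.08 in homozygotes, while that of the cytosolic proteins ran from -0.03 to 0.07. At an unadjusted p under 0.05, 3 of the 77 mitochondrial genes lay higher and 15 lower in homozygotes, beside 8.3% and 8.64% of all genes. Mrpl50 and Mrps7 had the smallest p, at -0.30 ± 0.09 (adjusted p = 0.145) and -0.34 ± 0.11 (adjusted p = 0.164). The difference between the cytosolic and mitochondrial sets was not tested.

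Ribosome assembly factors and RNA polymerase I genes had 20 of 51 values above 0, 0 passed, and a median of -0.05. Ltv1, which carries the small subunit out of the nucleus, and Dhx33, a nucleolar helicase, had -0.39 ± 0.13 and -0.36 ± 0.14. Translation initiation and elongation factors had 15 of 42 above 0, 0 passed, and a median of -0.05, and Eif2s2 and Eif2s1, subunits of the factor that brings the initiator tRNA, had -0.37 ± 0.11 and -0.39 ± 0.13 (adjusted p = 0.148 and 0.182). Other TOP mRNAs, a list that contains Fau, had 11 of 22 above 0, 0 passed, and a median of -0.02. Hnrnpa1 on that list had -0.33 ± 0.13. Genes that share the TOP start with the ribosomal proteins were thus spread on both sides of 0, and with quantile normalization 7 of 22 were above it.

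Of 24 genes of p53 and its targets, 6 had a value above 0, against 52.2% of all genes, and 18 below, with a median of -0.12. The threshold was passed by 1 lower gene and 0 higher ones, where 1.37% of all genes passed. Perp, a p53 target of epithelial junctions, fell by 0.91 on the log2 scale (limma, adjusted p = 0.00174). Trp53, Mdm2 and Cdkn1a had 0.28 ± 0.16, -0.16 ± 0.08 and 0.11 ± 0.15, and Rps27l, a member of both lists, had the second smallest p. The proliferation list had 13 of 31 above 0 and 0 passed, with Pcna at -0.24 ± 0.08 (adjusted p = 0.193) and Birc5 at -0.33 ± 0.13.

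**Figure D5:**
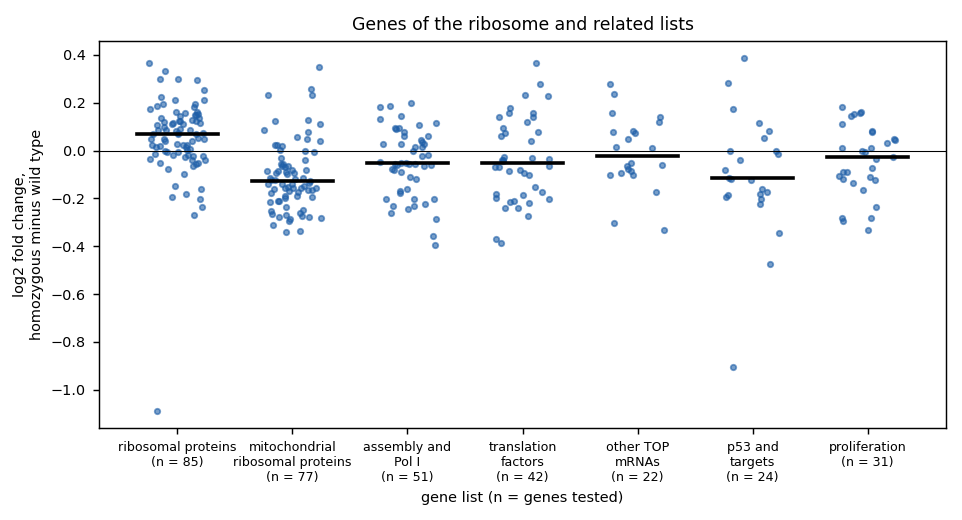
Log2 fold change, homozygous minus wild type, of each tested gene (points, spread sideways at random) in 7 gene lists, with the list's median as a black line. The line is at 0.07 for the ribosomal proteins (-0.03 with quantile normalization) and at -0.13 for the mitochondrial ribosomal proteins, and the low point of the ribosomal proteins is the dim Rpl10l.

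Markers of the embryo's tissues moved in their own ways beside these values. Of 4 mesenchyme markers, 3 fell in homozygotes, where 1.37% of all genes passed: Twist1 fell by 0.94, Col3a1 fell by 1.55 and Prrx1 fell by 1.83 on the log2 scale (limma, adjusted p = 0.00411, 0.00636 and 0.0133). Col1a1, the other mesenchyme marker of the list, lay higher at 0.23 and did not pass. Of 9 erythroid, 8 visceral endoderm, 7 heart and 5 neural tube markers 0 passed. The mean of the visceral endoderm markers ran from -1.75 to 3.14 over the homozygous arrays, and was lowest on homozygous replicate 3 and highest on replicate 1, the arrays with the highest and lowest mean of the ribosomal proteins among homozygotes. On heterozygous replicate 4, where the ribosomal proteins lay at 0.26, it was 1.66. Ttr and Amn had homozygous values of 1.10 ± 0.92 and 0.81 ± 1.01, Hba-a1 and Hbb-bh1 -0.50 ± 0.53 and -0.32 ± 0.38, Tnnt2 and Myh6 0.36 ± 0.70 and 0.40 ± 1.08, and Sox2 and Pax6 -0.28 ± 0.15 and -0.30 ± 0.16. The mean of the heart markers of heterozygous replicate 1 lay at -4.91 from wild type, and the ribosomal proteins of that array lay at 0.05. The part of tissue makeup in the ribosomal protein values was not tested.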

How the data were processed

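Per the labels' protocols, total RNA was amplified and labelled with Cy3, and per the file headers the spots were read with Agilent Feature Extraction 10.7.3.1, also named with limma in the submitters' processing notes. The deposited intensity values are the processed signal, corrected for background within the array and not scaled between arrays; the authors' value table held the same intensity values. Control and outlier spots were left out, 26055 of 39429 probes were named through accessions in a RefSeq table of GRCm38.p6, and log2 signals were scaled by each array's 75th percentile.

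Probes were tested if, in 1 or more genotypes, every array was well above background. A model with 3 genotype means was fitted to 22582 genes or unnamed identifiers with limma 3.58.1 in R 4.3.3 (lmFit, eBayes, Benjamini-Hochberg, threshold 0.05) and was tested on simulated data. Replicates are numbered in accession order, and the number of arrays limits the precision. The members and lists were chosen with earlier results of these data known.

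Named genes are the 6 smallest p of each comparison, members with known alleles or roles, paralogue pairs, the 2 largest and smallest spreads, and for each other list its 2 smallest p. Rpl35, Rpl18, Rpl23, Rps4l, Rps21, Rps23rg1, Rps16, Rpl37a, Trp53, Mdm2, Cdkn1a, Prrx1 and Col1a1 were named after their values were seen. Alternatives were 4 other scalings (normexp ran on the median spot signal with an offset of 50), the value table, 2 filters on dim probes, 2 uses of a gene's probes, blocks for the slide, the position or the title number, array weights, trend and robust variance, fits of 2 genotypes alone, and each array left out in turn. Some genes that the naming rule took are not reported here. Figures were drawn with matplotlib 3.10.9.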

Additional observations from a re-analysis of the deposited data

Results flagged for a closer look

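In each genotype the array farthest from the other 3 was compared with their range for the named members and for the mean over all members, 123 groups of 4 arrays in all. In 8 of them 1 array stood apart, where chance gives about 1 in 20. Over the 85 genes, heterozygous replicate 4 had a mean difference from wild type of 0.26 (median 0.20), with the nearest heterozygous array at 0.05. Rps4x, the X-linked small subunit gene, stood apart on the same array, at 6.41 with the nearest at 6.20, and also on wild-type replicate 4, at 5.92 with the nearest at 6.12.

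Rpl24 was at 7.78 on wild-type replicate 3, with the nearest wild-type array at 7.27. Rpl10 was at 7.78 on wild-type replicate 2, with the nearest at 7.71, and Rps19bp1 was at 3.07 there, with the nearest at 2.76. Among homozygous arrays, Rpl21 was at -0.48 on replicate 2, with the nearest at -0.19, and Rps27l was at 5.48 on replicate 3, with the nearest at 5.32.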

How the results depend on the processing

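No member passed the threshold in any of the 3 comparisons under any of the 27 alternatives (smallest adjusted p with limma 0.0727, 0.0951 and 0.621 in homozygous minus wild type, heterozygous minus wild type and homozygous minus heterozygous), beside 0 to 10 and 0 to 13 members at an unadjusted p under 0.05 in the first 2 comparisons (with a gene's probes not counted singly). Quantile normalization turned the median member difference from 0.069 to -0.030 in homozygotes and from 0.080 to -0.047 in heterozygotes against wild type. With cyclic loess, normexp and the array median both stayed above 0. Leaving out each array in turn gave medians of 0.01 to 0.12, 0.05 to 0.10 and -0.09 to 0.02 in the 3 comparisons, the last changing sign, as it also did with quantile normalization, cyclic loess, the array median, array weights and title number as a block. Of 1245 alternative values of single named members, 1221 moved by less than the spread between replicates, 24 moved by more, most of them with position as a block or with quantile normalization, and 0 passed. The 1221 include values that could not move. The value table, the filters on dim probes, trend and robust variance, and fits of 2 genotypes alone leave a log2 fold change as it was. So does leaving out an array of the genotype not compared. The whole numbers in the sample titles are shared between genotypes, but the labels do not say what they mark, and deviations of the 11 pairs of arrays with the same number correlated from -0.32 to 0.29, which shows no pairing and does not settle whether embryos shared a litter. With that number as a replicate block the medians were 0.09, 0.07 and 0.01, with 0 members called. Where causes are not stated, the cause was not tested.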
